A study of Mus musculus with 15 samples.

Results

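Naive CD4+ T cells that were driven toward the Th17 lineage by antigen-presenting cells were compared with cells driven toward the Th9 lineage in the same way, over all genes of a mouse expression array. The comparison rested on 4 of the 15 arrays of the study, 2 of the Th17 culture and 2 of the Th9 culture under antigen presentation. All 4 cultures held CD4+ T cells of 3A9 mice, whose transgenic T cell receptor recognises hen egg lysozyme (HEL), sorted with the clonotypic antibody 1G12. The cells were activated by HEL protein and irradiated (30 Gy) wild-type splenocytes of the same background, added at 5 splenocytes per T cell; this activation is called HA. The Th9 HA cultures received IL-4 at 10 ng/ml, TGF-β at 1 ng/ml and HEL at 1 µg/ml. The Th17 HA cultures received 3 ng/ml of TGF-β, 10 ng/ml of IL-6, 5 ng/ml of IL-1α and 2 µg/ml of HEL, with antibodies against IFN-γ (20 µg/ml), IL-4 (10 µg/ml) and IL-12 (10 µg/ml). HEL and TGF-β doses and the antibodies thus differed together with the lineage, and their parts in any difference cannot be told apart. RNA was taken on day 4. The labels name no age or sex of the mice and no step that removed the splenocytes before RNA isolation. Of the other 11 arrays, 2 Th1 HA arrays, 4 arrays of Th9 and Th17 cultures on plate-bound anti-CD3 and anti-CD28 (PBAB, without splenocytes) and the single APC alone arrays of the Th9 and Th17 cultures are used below as reference levels, and the remaining 3 Th1 arrays entered only the fit. Replicates are biological replicates by their titles, but the labels name no animals, so the p-values cover only how much these arrays vary, which may be technical.

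Th17 and Th9 cells are CD4+ helper T cells whose fate is set by the cytokines present while the T cell receptor is engaged. In Th17 cells, TGF-β with IL-6 acts through STAT3 to induce IL-17 and the chemokine receptor CCR6, which draws cells to inflamed epithelium. In Th9 cells, IL-4 with TGF-β acts through STAT6, GATA3, IRF4 and PU.1 (Spi1) toward IL-9, a growth factor of mast cells and T cells. Both mixtures contain TGF-β. The cultures compared here differed in its dose, in the other cytokines, in the HEL dose and in the antibodies, as given above.

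Promoter sequences of 4 lineage genes are shown because factors active in these lineages have known letter patterns: TTCNNNGAA (the STAT3 type), the same ends TTC and GAA with 4 bases between them (the STAT6 type) and AGGTCA (a nuclear receptor half-site), each searched on both strands. The sequences are RefSeq's (GRCm38.p6), the 250 bases before the gene's start, 5′ to 3′ on the gene's strand, with every match of the 3 patterns in capitals. They were chosen because they hold a match; a match is a description and shows no binding. In Il17a (chr1:20730655-20730904, + strand) the capitals mark AGGTCA on the reverse strand, 120 bases before the start. In Ccr6 (chr17:8235793-8236042, + strand) they mark 2 matches of TTCNNNGAA, 157 and 120 bases before the start, and AGGTCA on the reverse strand, 44 bases before the start. In Il9 (chr13:56482258-56482507, - strand) and Il4 (chr11:53618666-53618915, - strand) they mark the STAT6 type, 184 and 167 bases before the start. Il4 has 2 promoter windows (250 bases before to 50 after a start), and 1 match of TTCNNNGAA in them lies outside the bases printed.
Il17a: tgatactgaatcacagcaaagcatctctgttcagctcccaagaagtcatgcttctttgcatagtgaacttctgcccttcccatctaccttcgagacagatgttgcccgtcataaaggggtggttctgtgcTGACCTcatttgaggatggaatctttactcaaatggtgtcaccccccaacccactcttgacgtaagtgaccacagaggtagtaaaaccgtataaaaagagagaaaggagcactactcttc
Ccr6: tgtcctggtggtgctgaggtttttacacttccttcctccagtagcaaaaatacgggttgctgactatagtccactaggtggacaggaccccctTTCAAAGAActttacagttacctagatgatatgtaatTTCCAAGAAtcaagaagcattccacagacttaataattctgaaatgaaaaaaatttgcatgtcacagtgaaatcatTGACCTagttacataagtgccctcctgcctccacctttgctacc
Il9: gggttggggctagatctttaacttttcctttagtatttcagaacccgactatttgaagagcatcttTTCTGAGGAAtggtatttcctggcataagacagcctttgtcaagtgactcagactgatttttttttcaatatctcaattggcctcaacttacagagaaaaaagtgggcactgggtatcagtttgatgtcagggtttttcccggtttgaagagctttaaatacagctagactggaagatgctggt
Il4: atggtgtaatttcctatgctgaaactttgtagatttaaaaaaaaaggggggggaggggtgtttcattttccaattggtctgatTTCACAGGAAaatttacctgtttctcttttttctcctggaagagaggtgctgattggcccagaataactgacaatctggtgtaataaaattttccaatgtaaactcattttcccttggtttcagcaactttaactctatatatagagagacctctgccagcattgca
Over promoter windows from 250 bases before to 50 after the start, TTCNNNGAA was present in 8.27% of the 12389 genes tested that had a window, in 12.2% of the 329 called higher in Th17 HA and in 9.77% of the 266 called lower. The STAT6 type was present in 6.81%, 8.51% and 7.14% of the same groups, and AGGTCA in 16.1%, 17.6% and 20.7%. No test was made of these shares.

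Values are log2 signals (RMA), so a difference of 1 is 2-fold. The deposited table has no detection calls. A signal below 5.07, the 40th percentile of the table, was taken as not told from background. No fold or difference is given against a group whose mean lay below 5.07, except in the figures and among the flagged results. The 4 arrays were alike in medians (5.45 to 5.52), but control signals and spread split by replicate number. In Th9 HA and Th17 HA, the bioB control stood at 9.45 and 9.0 in replicate 1 and at 10.50 and 10.86 in replicate 2. The ribosomal RNA signal ran the other way, at 10.47 and 10.89 in replicate 1 and 9.34 and 9.27 in replicate 2. Interquartile ranges were 3.48 and 3.47 in replicate 1 and 3.11 and 3.25 in replicate 2. Correlations over genes were 0.986 within Th9 HA, 0.987 within Th17 HA and 0.974 to 0.984 between the cultures. Arrays with the same replicate number were alike in their deviations from the group mean, so the fit with the number as a block is given where it changes a call or a count by over 1.5 times. T cell markers were high in all 4 arrays: the mean over the 16 T cell identity genes on the array was 10.70 and 10.45 in Th9 HA and 10.80 and 10.52 in Th17 HA. The APC alone arrays stood apart from the others, with an interquartile range of 2.04 in Th9 and 2.09 in Th17 against 3.11 to 3.48 in the 4 HA arrays. Their bioB signals were 13.71 and 14.01. Their 3′ actin signal exceeded the 5′ signal by 0.74 and 0.92, against 0.05 to 0.11 in the 4 HA arrays. The amount and quality of their RNA may thus differ, and their levels are given as reference only. In bulk arrays such as these, fewer cells of a type and less RNA per cell cannot be told apart.

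Of 15498 genes tested, 739 (4.77%) differed between Th17 HA and Th9 HA at an adjusted p under 0.05 in limma, 404 higher (2.61%) and 335 lower (2.16%) in Th17 HA. Of these, 501 differed by 2-fold or more and 133 by 4-fold or more. In 96 of the 739 genes at least 1 of the groups had a mean below 5.07. With the replicate block 1831 genes were called (11.8%), 1092 higher (7.05%) and 739 lower (4.77%), among them all 739 called without it. Counts of called list members below are to be read against these shares, without or with the block. The median difference over all genes was 0.0076. The total fell to 374 without Th9 HA 1, 390 without Th9 HA 2, 372 without Th17 HA 1 and 364 without Th17 HA 2. Without Th9 HA 2 the split also turned, to 151 higher and 239 lower.

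**Figure D1:**
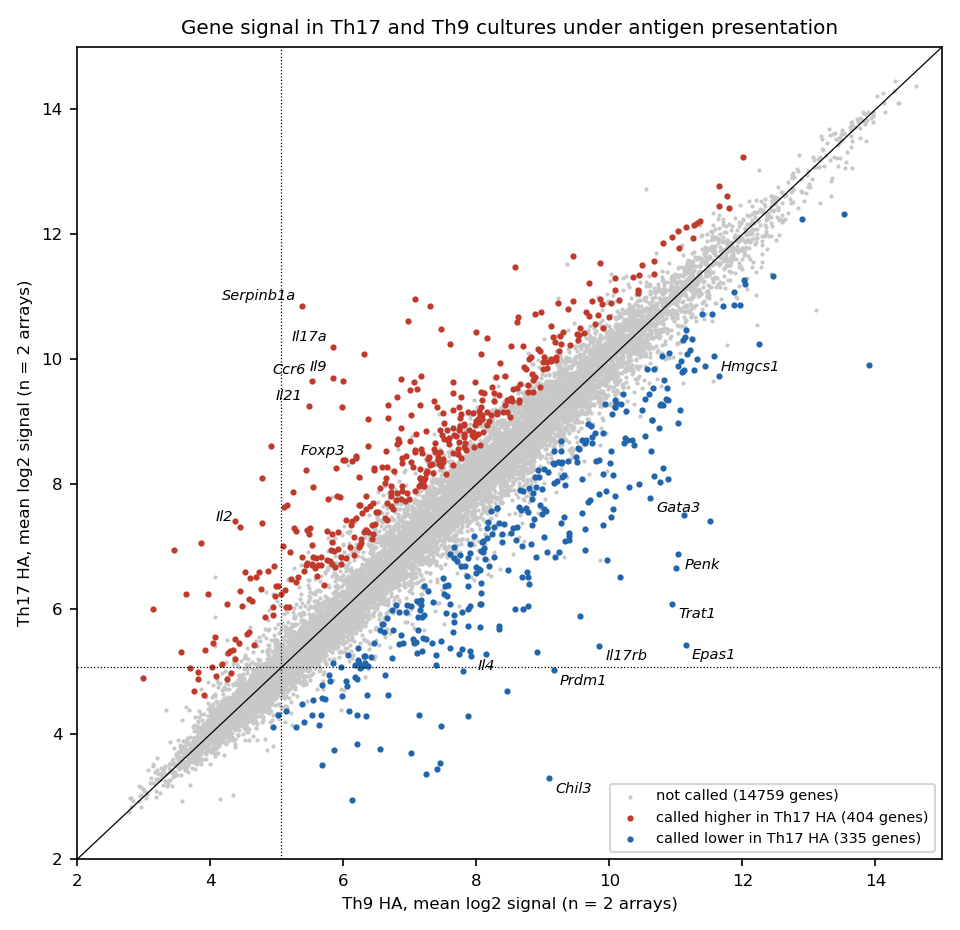
Mean log2 signal in the 2 Th9 HA arrays (horizontal) and the 2 Th17 HA arrays (vertical) for each of the 15498 genes tested; red dots are the 404 genes called higher and blue dots the 335 called lower in Th17 HA, the solid line marks equal signal and the dotted lines the signal threshold of 5.07. Il17a, Ccr6 and Il21 lie among the genes farthest above the line and Epas1, Trat1 and Chil3 among those farthest below it.

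Il17a, Ccr6, Il21 and Pdpn, members of the Th17 programme, were higher in the Th17 culture. Il17a, which encodes the defining cytokine of the lineage, had log2 signals of 5.65 and 6.04 in Th9 HA and 10.72 and 9.67 in Th17 HA. Both Th17 values lay far above the Th9 values, by 4.35 ± 0.30 (SE) log2 units (20.4-fold, adjusted p = 4.55e-05), and the Th1 HA arrays were at the Th9 level (5.47 and 5.85). Ccr6 stood at 5.45 and 5.62 in Th9 HA and 9.69 and 9.63 in Th17 HA, a difference of 4.13 ± 0.30 (17.4-fold, adjusted p = 6.28e-05). Il21, whose product acts back on Th17 cells and on B cells, stood at 5.72 and 5.23 in Th9 HA and 9.66 and 8.85 in Th17 HA and differed by 3.78 ± 0.39 (adjusted p = 4e-04). Pdpn, which encodes the membrane glycoprotein podoplanin, differed by 3.66 ± 0.28 (adjusted p = 8.51e-05). In each of these 4 genes the lowest Th17 HA value was at least 2 units above the highest Th9 HA value. Of the 20 tested members of the Th17 programme list, 7 were called higher and 1 lower, against 2.61% and 2.16% of all genes, the latter Hlf, a PAR bZIP factor (-1.31 ± 0.24, adjusted p = 0.0116, but 0.0563 to 0.0742 without any single Th9 HA or Th17 HA array). The list's median was 0.62. Members of the Th17 list called higher numbered 4 without Th9 HA 2. Ahr, the aryl hydrocarbon receptor, which senses ligands that strengthen the Th17 fate, stood at 9.14 and 8.12 in Th9 HA and 11.03 and 10.34 in Th17 HA and was higher by 2.05 ± 0.40 (adjusted p = 0.0162, but 0.114 without Th9 HA 2 and 0.111 without Th17 HA 1). Il1r1, the receptor of the IL-1α added to the culture, differed by 1.0 ± 0.23 (adjusted p = 0.038, but 0.0532 to 0.253 without either Th1 HA array, Th9 HA 2, either Th9 PBAB array or either Th17 HA array). Il17f, Il22 and Il23r are not analysed here. The factors Rora, Maf and Stat3 were not called. Rora, a nuclear receptor, differed by 0.62 ± 0.29 (adjusted p = 0.334, but 0.0432 without Th17 HA 2). Maf stood at 10.85 and 10.59 in Th9 HA and 10.89 and 10.26 in Th17 HA and differed by -0.15 ± 0.27 (adjusted p = 0.905). The sign of the Maf value turned with the choice of probe set (0.10 for the mean of its probe sets) and without Th17 HA 2. Stat3 (difference 0.14 ± 0.29, adjusted p = 0.922, its sign turned without Th9 HA 2 or Th17 HA 1) and its feedback inhibitor Socs3 (0.62 ± 0.38, adjusted p = 0.533) were high in both cultures. Ccl20, the ligand of CCR6, differed by 0.99 ± 0.27 (adjusted p = 0.0669, and 0.0106 with the replicate block, but 0.00575 without Th17 HA 1).

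Il4, Gata3, Il13 and Il5 of the type 2 list were lower in the Th17 culture. Il4 stood at 8.07 and 7.77 in Th9 HA and 5.20 and 5.31 in Th17 HA; the Th17 values were close to the signal threshold and the difference was -2.66 ± 0.18 (6.33-fold, adjusted p = 3e-05). Gata3, the master regulator of type 2 cytokine loci, stood at 11.39 and 9.84 in Th9 HA and 7.94 and 7.63 in Th17 HA and differed by -2.83 ± 0.40 (adjusted p = 0.00307). The spread within Th9 HA was wide for Gata3, but its lower array was still above both Th17 HA arrays. Il13, which drives mucus and eosinophil responses, differed by -1.52 ± 0.36 (adjusted p = 0.0412, but 0.0539 to 0.246 without either Th1 HA array, either Th1 PBAB array, either Th9 HA array, Th17 HA 1 or either Th17 PBAB array). Il5, the eosinophil growth factor, stood at 5.37 and 5.20 in Th9 HA and 3.74 and 4.50 in Th17 HA, so that Th17 HA was not told from background (adjusted p = 0.0208, but 0.0756 to 0.12 without either Th9 HA array or Th17 HA 1). These 4 were the called members of the 10 tested in the type 2 list, all lower, against 2.16% of all genes. The list median was -0.69. Members of the type 2 list called lower numbered 2 without either Th9 HA array or Th17 HA 1. Il4ra, the IL-4 receptor chain, differed by -1.48 ± 0.26 (adjusted p = 0.00992, but 0.0787 without Th9 HA 1 and 0.0636 without Th17 HA 2). Stat6, which that receptor activates, differed by 0.27 ± 0.33 (adjusted p = 0.837), with the sign turned without Th9 HA 2 or Th17 HA 1. Il3 was not told from background in either culture.

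Of the Th9 programme, the gene for the receptor chain of IL-25, Il17rb, showed the widest gap. It stood at 10.04 and 9.65 in Th9 HA and 5.12 and 5.71 in Th17 HA, and Th1 HA was at 4.94 and 5.07, so the high signal was in the Th9 culture alone among the HA arrays. The difference was -4.43 ± 0.24 (21.5-fold, adjusted p = 1.14e-05). Ccr8, a chemokine receptor of type 2 and skin-homing T cells, stood at 9.17 and 8.38 in Th9 HA and 6.54 and 6.48 in Th17 HA (difference -2.27 ± 0.26, adjusted p = 0.000855). Nfil3, a bZIP repressor induced by IL-4, stood at 10.91 and 10.85 in Th9 HA and 8.57 and 7.61 in Th17 HA (difference -2.79 ± 0.39, adjusted p = 0.00278). Of 20 tested members of the Th9 list 6 were called lower, against 2.16% of all genes, with a list median of -0.22. The others called lower were Il4ra, given above, Irf1, an interferon-induced factor (-1.15 ± 0.16, adjusted p = 0.00307), and Gfi1, a repressor (-0.91 ± 0.23, adjusted p = 0.0497, but 0.0517 to 0.316 without any single Th9 HA or Th17 HA array, either Th1 HA array, either Th1 PBAB array, either Th9 PBAB array or either Th17 PBAB array). Batf, an AP-1 factor needed for Th17 and Th9 cells, differed by -1.06 ± 0.22 (adjusted p = 0.0206, but 0.0651 to 0.141 without Th9 HA 1 or either Th17 HA array). The 1 member called higher was Il9 itself. With the replicate block 2 were called higher and 7 lower, against 7.05% and 4.77% of all genes.

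Il9 had more signal in the Th17 culture than in the Th9 culture. Its log2 signals were 5.39 and 6.29 in Th9 HA and 9.01 and 10.41 in Th17 HA, and 5.07 and 5.08 in Th1 HA. Both Th17 values were above both Th9 values, by 3.86 ± 0.80 (14.6-fold, adjusted p = 0.0219, but 0.0634 to 0.165 without either Th9 HA array or Th17 HA 2). Under PBAB, the Th9 arrays stood at 8.31 and 5.33 and the Th17 arrays at 10.52 and 9.38. The Th9 PBAB arrays lay far apart from each other, the PBAB difference was 3.13 ± 0.80 (adjusted p = 0.0463), and the difference between the 2 activations was not called (adjusted p = 0.871). Of the regulators known from Th9 cells, Spi1, Irf4 and Batf3 were not called without the block. Spi1 stood at 5.94 and 5.91 in Th9 HA and 6.27 and 6.16 in Th17 HA (adjusted p = 0.53), at or near 6 in both cultures. Irf4, needed for several effector lineages, differed by 1.11 ± 0.36 (adjusted p = 0.141, and 0.0132 with the replicate block, but 0.0318 without either Th1 HA array). Batf3 differed by 0.46 ± 0.40 (adjusted p = 0.706). Ccr4, a further type 2 chemokine receptor, differed by 0.29 ± 0.21 (adjusted p = 0.615).

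**Figure D2:**
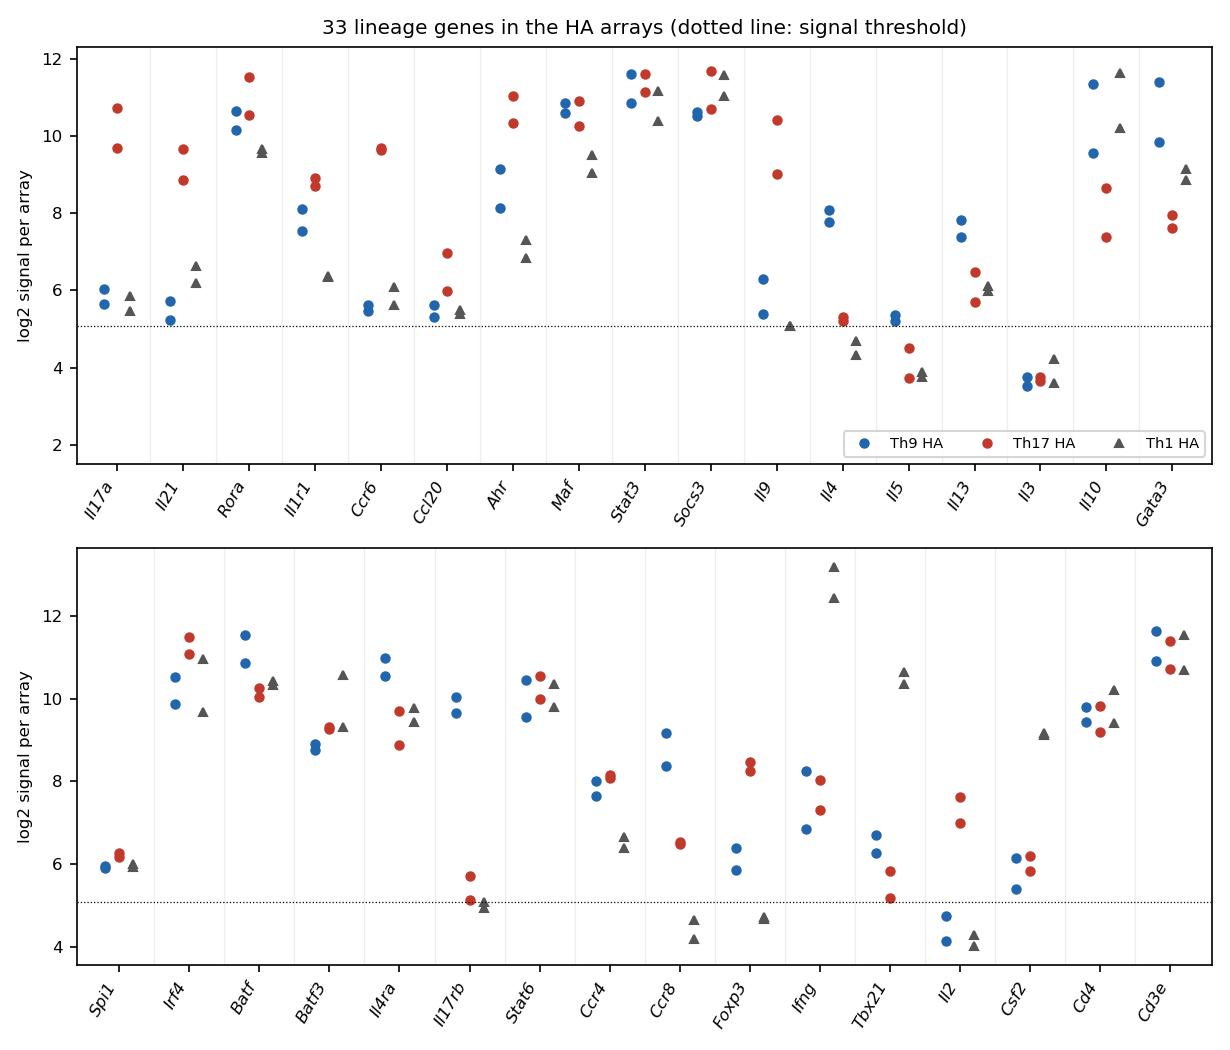
Log2 signal per array for the 33 tested lineage genes in Th9 HA (blue), Th17 HA (red) and Th1 HA (grey triangles), each with 2 arrays; the dotted line is the signal threshold of 5.07. Il17a, Il21, Ccr6 and Il9 are high in Th17 HA, Il4, Gata3, Il17rb and Ccr8 are high in Th9 HA, and Ifng and Tbx21 are highest in Th1 HA.

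Interleukin 2 and Foxp3 were higher in Th17 HA. Il2, the T cell growth factor, stood at 4.13 and 4.75 in Th9 HA and 7.0 and 7.61 in Th17 HA (adjusted p = 0.000258), so that Th9 HA was not told from background. The Th1 HA (4.02 and 4.28), Th9 PBAB (4.29 and 4.69) and Th17 PBAB (4.19 and 4.36) values were also below 5.07, while the Th1 PBAB arrays were above it, at 5.90 and 6.31. The APC alone arrays were at 5.39 in Th9 and 6.17 in Th17. Foxp3, the factor that defines regulatory T cells, stood at 6.39 and 5.86 in Th9 HA and 8.26 and 8.48 in Th17 HA (difference 2.25 ± 0.43, adjusted p = 0.0147, but 0.0626 to 0.108 without Th9 HA 2 or either Th17 HA array). Of 14 tested regulatory T cell markers, 2 were called higher, Foxp3 and Gpr83 (1.25 ± 0.26, adjusted p = 0.0233, but 0.0859 to 0.178 without either Th9 HA array or Th17 HA 2). One was called lower, Entpd1, which encodes the ectonucleotidase CD39 (-1.81 ± 0.35, adjusted p = 0.0151, but 0.0565 to 0.103 without any single Th9 HA or Th17 HA array). With the replicate block 3 were higher and 4 lower, against 7.05% and 4.77% of all genes, or 2.61% and 2.16% without it. The list's mean level was 9.0 and 8.81 in Th9 HA and 9.0 and 9.09 in Th17 HA. Il10, an inhibitory cytokine, ran the other way, at 11.33 and 9.56 in Th9 HA and 8.64 and 7.37 in Th17 HA (difference -2.44 ± 0.61, adjusted p = 0.0491, but 0.0561 to 0.321 without either Th1 PBAB array, Th9 HA 1, either Th9 PBAB array, either Th17 HA array or either Th17 PBAB array). Cd4 and Cd3e, which mark the T cells themselves, differed by -0.11 ± 0.30 (adjusted p = 0.943) and -0.22 ± 0.36 (adjusted p = 0.891), values whose sign turned without Th9 HA 1 or Th17 HA 2.

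In both cultures Ifng and Tbx21 stood below their signals in the Th1 HA arrays. Ifng, the defining Th1 cytokine, stood at 6.84 and 8.24 in Th9 HA and 7.30 and 8.02 in Th17 HA against 13.20 and 12.44 in Th1 HA, and the cultures overlapped (difference 0.12 ± 0.48, adjusted p = 0.964, the sign turned without Th9 HA 1 or Th17 HA 2). Tbx21, the Th1 master regulator, was at 10.66 and 10.36 in Th1 HA and differed by -0.99 ± 0.43 (adjusted p = 0.295) and Csf2, which encodes GM-CSF, by 0.24 ± 0.40 (adjusted p = 0.894, its sign turned without Th9 HA 1). Of 15 tested Th1 programme genes, 2 were called higher, the IL-18 receptor chain Il18r1 (2.57 ± 0.20, adjusted p = 9.28e-05) and the kinase gene Txk (1.83 ± 0.31, adjusted p = 0.00765, but 0.0646 without Th9 HA 1). A further 2 were called lower, Eomes (-1.61 ± 0.18, adjusted p = 0.000781) and Fasl, the death receptor ligand (-1.72 ± 0.32, adjusted p = 0.014, but 0.107 without Th9 HA 2 and 0.0952 without Th17 HA 1). With the replicate block 4 were lower, against 4.77% of all genes. Without it 2.61% of all genes were called higher and 2.16% lower. Of 15 cytotoxic granule genes, 1 was called, the protease gene Gzma, at 13.79 and 14.03 in Th9 HA and 9.35 and 10.47 in Th17 HA (difference -4.0 ± 0.91, adjusted p = 0.0331, but 0.0849 to 0.188 without any single Th9 HA or Th17 HA array). Of the granule genes 4 were called lower with the replicate block, against 4.77% of all genes. A negative difference was found in 13 of the 15 (median -0.51). Gzmb stood at 13.32 and 12.90 in Th9 HA and 9.62 and 11.95 in Th17 HA, and its Th17 HA arrays lay more than 2 units apart (difference -2.33 ± 0.81, adjusted p = 0.171, and 0.0481 with the replicate block).

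The largest differences also took in genes outside the lineage programmes. The highest was Serpinb1a, an intracellular inhibitor of neutrophil proteases, at 5.69 and 5.06 in Th9 HA and 11.34 and 10.35 in Th17 HA (44.3-fold, adjusted p = 9.28e-05). Crispld2, which encodes a secreted cysteine-rich protein, differed by 3.77 ± 0.34 (adjusted p = 0.000172), and Ramp1, a subunit of the CGRP receptor, by 3.64 ± 0.37 (adjusted p = 0.000336). Lta, the lymphotoxin gene, differed by 3.55 ± 0.79 (adjusted p = 0.0291, but 0.0516 to 0.153 without any single Th9 HA or Th17 HA array or either Th17 PBAB array). Upp1, uridine phosphorylase, stood at 6.22 and 5.76 in Th9 HA and 9.70 and 8.76 in Th17 HA (9.47-fold, adjusted p = 0.000246). Fnbp1l, which encodes a protein that bends membranes, Clec4e, the myeloid receptor Mincle, and H2-Ob, a chain of the class II regulator H2-O, were above 6 in both Th17 HA arrays and below 5.07 in both Th9 HA arrays. Their Th17 HA values were 7.94 and 8.27 for Fnbp1l, 6.68 and 7.23 for Clec4e and 7.02 and 7.11 for H2-Ob (adjusted p = 0.000239, 3e-05 and 1.34e-05).

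Among the genes lower in Th17 HA, Epas1, the hypoxia-inducible factor HIF-2α, stood at 11.48 and 10.82 in Th9 HA and 5.19 and 5.67 in Th17 HA (52.5-fold, adjusted p = 1.14e-05). Trat1, an adaptor of the T cell receptor complex, stood at 10.93 and 10.96 in Th9 HA and 5.79 and 6.38 in Th17 HA (29-fold, adjusted p = 8.86e-06). Itgb3, the integrin β3 chain, stood at 11.03 and 10.97 in Th9 HA and 6.59 and 6.71 in Th17 HA (20.3-fold, adjusted p = 0.000993). Penk, the enkephalin precursor gene, stood at 11.49 and 10.57 in Th9 HA and 6.76 and 6.99 in Th17 HA (17.8-fold, adjusted p = 0.000226). Akr1c18, a progesterone-metabolising enzyme, stood at 11.50 and 11.52 in Th9 HA and 7.13 and 7.68 in Th17 HA (17.2-fold, adjusted p = 9.28e-05). In all 5 the values within a culture were within 1 unit of each other. Fgl2, which encodes a fibrinogen-like protein, differed by -3.68 ± 0.37 (adjusted p = 0.000325), and Tg, the thyroglobulin gene, by -3.63 ± 0.42 (adjusted p = 0.000832). In a further 5 the Th9 HA arrays had signal while the Th17 HA mean was not told from background. These were Prdm1, the repressor Blimp-1 (9.43 and 8.89 in Th9 HA), Pth, the parathyroid hormone gene (7.92 and 6.91), Il6 (7.77 and 7.13), Acbd7 (7.35 and 7.13) and Ppp2r3a (8.72 and 8.21). Prdm1 was at 10.27 and 9.27 in Th1 HA, so among the HA cultures it was low in Th17 alone. Il6, the cytokine added as protein to the Th17 culture, was at 3.93 in Th9 APC alone and 5.42 in Th17 APC alone.

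Several receptor genes of T and NK cells were higher in Th17 HA. Klrd1 (CD94) stood at 6.62 and 7.54 in Th9 HA and 11.26 and 10.68 in Th17 HA (adjusted p = 0.00512). Klrc1 (NKG2A), which pairs with CD94 into an inhibitory receptor for Qa-1, stood at 4.61 and 5.20 in Th9 HA and 8.68 and 8.53 in Th17 HA (adjusted p = 0.00375). Klre1 stood at 4.88 and 5.25 in Th9 HA and 6.21 and 6.28 in Th17 HA (adjusted p = 0.00441). These were the 3 of 10 tested NK cell markers called higher, and Gzma and Eomes the 2 called lower. Of all genes 2.61% were called higher and 2.16% lower. Members of the NK list called lower numbered 1 without any single Th9 HA or Th17 HA array. The mean over the 12 NK markers on the array was 6.07 and 6.46 in Th9 HA and 6.46 and 6.80 in Th17 HA, and the part of NK cells in the signal was not tested. Of 17 costimulatory genes 4 were called higher and 0 lower, against 2.61% and 2.16% of all genes (3 lower at an unadjusted p under 0.05). They were the death-domain receptor gene Tnfrsf25 (2.18 ± 0.25, adjusted p = 0.000794), Cd6 (1.49 ± 0.22, adjusted p = 0.00386), Cd2 (1.06 ± 0.17, adjusted p = 0.00512) and Tnfrsf1b (0.75 ± 0.17, adjusted p = 0.029, but 0.0656 to 0.181 without any single Th9 HA or Th17 HA array). With the replicate block 4 were lower as well, against 4.77% of all genes. Btla, an inhibitory receptor of T and B cells, stood at 7.06 and 6.66 in Th9 HA and 9.62 and 9.75 in Th17 HA (7.06-fold, adjusted p = 0.000118), and Cd5, a damper of T cell receptor signals, differed by 1.97 ± 0.34 (adjusted p = 0.00905, but 0.0766 without Th9 HA 2 and 0.072 without Th17 HA 1). Of 16 genes of naive and memory quiescence 4 were called higher, among them Bach2 (1.67 ± 0.29, adjusted p = 0.00949, but 0.0806 without Th9 HA 2 and 0.0785 without Th17 HA 1), the egress receptor gene S1pr1 (1.65 ± 0.30, adjusted p = 0.0113, but 0.0769 without Th9 HA 2 and 0.0877 without Th17 HA 1) and Foxp1 (1.02 ± 0.22, adjusted p = 0.0281, but 0.0857 to 0.195 without Th9 HA 2 or either Th17 HA array). Members of the quiescence list called higher numbered 0 without Th9 HA 2 or Th17 HA 1 and 2 without Th17 HA 2. Quiescence genes called with the replicate block were 6 higher and 1 lower, against 7.05% and 4.77% of all genes.

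Members of the IL-1 response were called higher and members of the interferon responses lower. Of 19 tested IL-1 and NF-κB response genes 18 had a positive difference, with a median of 0.80. Called higher were 5, against 2.61% of all genes, and 11 with the replicate block, against 7.05%. Under PBAB, with the same cytokines but no splenocytes, the median of these genes was -0.11, with 8 positive and 11 negative differences and 1 called higher. In the HA arrays, 8 of 23 macrophage and monocyte markers were called higher in Th17 along with them, and their part in the list's values was not tested. Members of the IL-1 list called higher numbered 3 without either Th9 HA array or Th17 HA 1. Il1b stood at 6.85 and 6.33 in Th9 HA and 8.30 and 8.24 in Th17 HA (difference 1.68 ± 0.23, adjusted p = 0.00221) and its antagonist Il1rn at 6.51 and 6.78 in Th9 HA and 7.92 and 9.15 in Th17 HA (difference 1.89 ± 0.33, adjusted p = 0.00945, but 0.0704 without Th9 HA 1). Of 21 IFN-γ response genes 5 were called lower (9 with the replicate block) and 1 higher, with a median of -0.51. For this list and the type I interferon list below, 2.16% of all genes were called lower, and 4.77% with the block. Antibodies against IFN-γ and IL-12 were added to the Th17 cultures and not to the Th9 cultures. Their part in the interferon response values cannot be told apart from that of the lineage. Irf1 and the guanylate-binding protein gene Gbp6 (8.94 and 10.34 in Th9 HA and 7.07 and 7.48 in Th17 HA, adjusted p = 0.00429) were lower. Psmb9, a subunit of the immunoproteasome (-0.86 ± 0.17, adjusted p = 0.0164, but 0.0664 to 0.114 without Th9 HA 2 or either Th17 HA array), the peptide transporter gene Tap1 (-1.14 ± 0.27, adjusted p = 0.0398, but 0.0524 to 0.271 without any single Th9 HA or Th17 HA array or either Th17 PBAB array) and Irgm1 (-0.98 ± 0.22, adjusted p = 0.0314, but 0.0523 to 0.227 without Th9 HA 2, either Th17 HA array or either Th17 PBAB array) were lower too. The 1 called higher was the chemokine gene Cxcl9 (4.06 and 4.08 in Th9 HA and 5.13 and 5.97 in Th17 HA, adjusted p = 0.023, but 0.107 to 0.171 without either Th9 HA array or Th17 HA 2). Members of the IFN-γ list called lower numbered 9 without Th9 HA 1, 2 without Th9 HA 2 or either Th17 HA array and 3 without either Th17 PBAB array. Of 23 type I interferon-stimulated genes 19 had a negative difference and 3 were called lower (9 with the replicate block): the RNA sensor gene Ddx58 (-1.25 ± 0.22, adjusted p = 0.00945, but 0.0686 without Th9 HA 1 and 0.0833 without Th17 HA 2), Isg20 (-1.42 ± 0.34, adjusted p = 0.0412, but 0.0534 to 0.27 without either Th1 HA array, Th9 HA 2, either Th17 HA array or either Th17 PBAB array) and Oas3 (-0.72 ± 0.17, adjusted p = 0.0332, but 0.0519 to 0.201 without any single Th9 HA or Th17 HA array, either Th1 PBAB array or either Th17 PBAB array). Members of the type I interferon list called lower numbered 1 without either Th9 HA array, Th17 HA 1 or either Th17 PBAB array and 0 without Th17 HA 2.

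Responses to IL-6, TGF-β and AHR ligands were mixed. Of 18 genes of the IL-6 and STAT3 list 1 was called higher, the receptor gene Il6ra, at 5.92 and 5.87 in Th9 HA and 8.23 and 8.29 in Th17 HA (5.17-fold, adjusted p = 0.000701). Prdm1, Il10 and Batf were called lower, against 2.16% of all genes, and with the replicate block 5 were lower, against 4.77%. Members of the IL-6 list called lower numbered 1 without Th9 HA 1 or either Th17 HA array. With the replicate block 5 of 20 TGF-β response genes were called higher and 2 lower, against 7.05% and 4.77% of all genes. Without it 2 were called each way, against 2.61% higher and 2.16% lower. Among them were the corepressor gene Tgif1 (1.80 ± 0.23, adjusted p = 0.00155) and Tgfbr3, the betaglycan receptor (-0.74 ± 0.16, adjusted p = 0.0234, but 0.0845 to 0.145 without Th9 HA 1 or either Th17 HA array). Members of the TGF-β list called higher numbered 1 without any single Th9 HA or Th17 HA array, either Th1 PBAB array or either Th9 PBAB array. Members of the TGF-β list called lower numbered 1 without either Th1 HA array, either Th1 PBAB array, Th9 HA 2 or either Th17 PBAB array and 0 without Th9 HA 1 or either Th17 HA array. Of 7 AHR genes 2 were called higher, Ahr and the AHR target Cyp1b1, at 5.78 and 6.12 in Th9 HA and 7.35 and 8.25 in Th17 HA (adjusted p = 0.0211, but 0.0702 to 0.163 without either Th9 HA array or Th17 HA 2). Of 18 T cell cytokine genes 3 were called lower, Penk, Il10 and the death ligand gene Tnfsf10 (-2.22 ± 0.33, adjusted p = 0.00364). For this list and the AHR list, 2.61% of all genes were called higher and 2.16% lower. Lta and Ltb were called higher (Ltb 1.13 ± 0.21, adjusted p = 0.0133, but 0.0503 to 0.0962 without either Th9 HA array or Th17 HA 1). Nr4a3, an early response gene of the T cell receptor, was the 1 of 19 such genes called, a share close to the 4.77% of all genes called either way. Nr4a3 differed by 1.15 ± 0.19 (adjusted p = 0.00682), and by 1.06 without Th17 HA 2, where it was not called. With the mean of its probe sets the difference was 0.47 (adjusted p = 0.175). With the replicate block 4 early response genes were higher and 3 lower, against 7.05% and 4.77% of all genes. Pmaip1, which encodes the p53 target NOXA, differed by 1.66 ± 0.26 (adjusted p = 0.00553). Anxa3 stood at 4.89 and 4.85 in Th9 HA and 6.56 and 6.66 in Th17 HA (adjusted p = 0.0175, but 0.0769 to 0.104 without any single Th9 HA or Th17 HA array), and S100a13 differed by -0.78 ± 0.16 (adjusted p = 0.0197, but 0.0701 to 0.132 without any single Th9 HA or Th17 HA array).

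**Figure D3:**
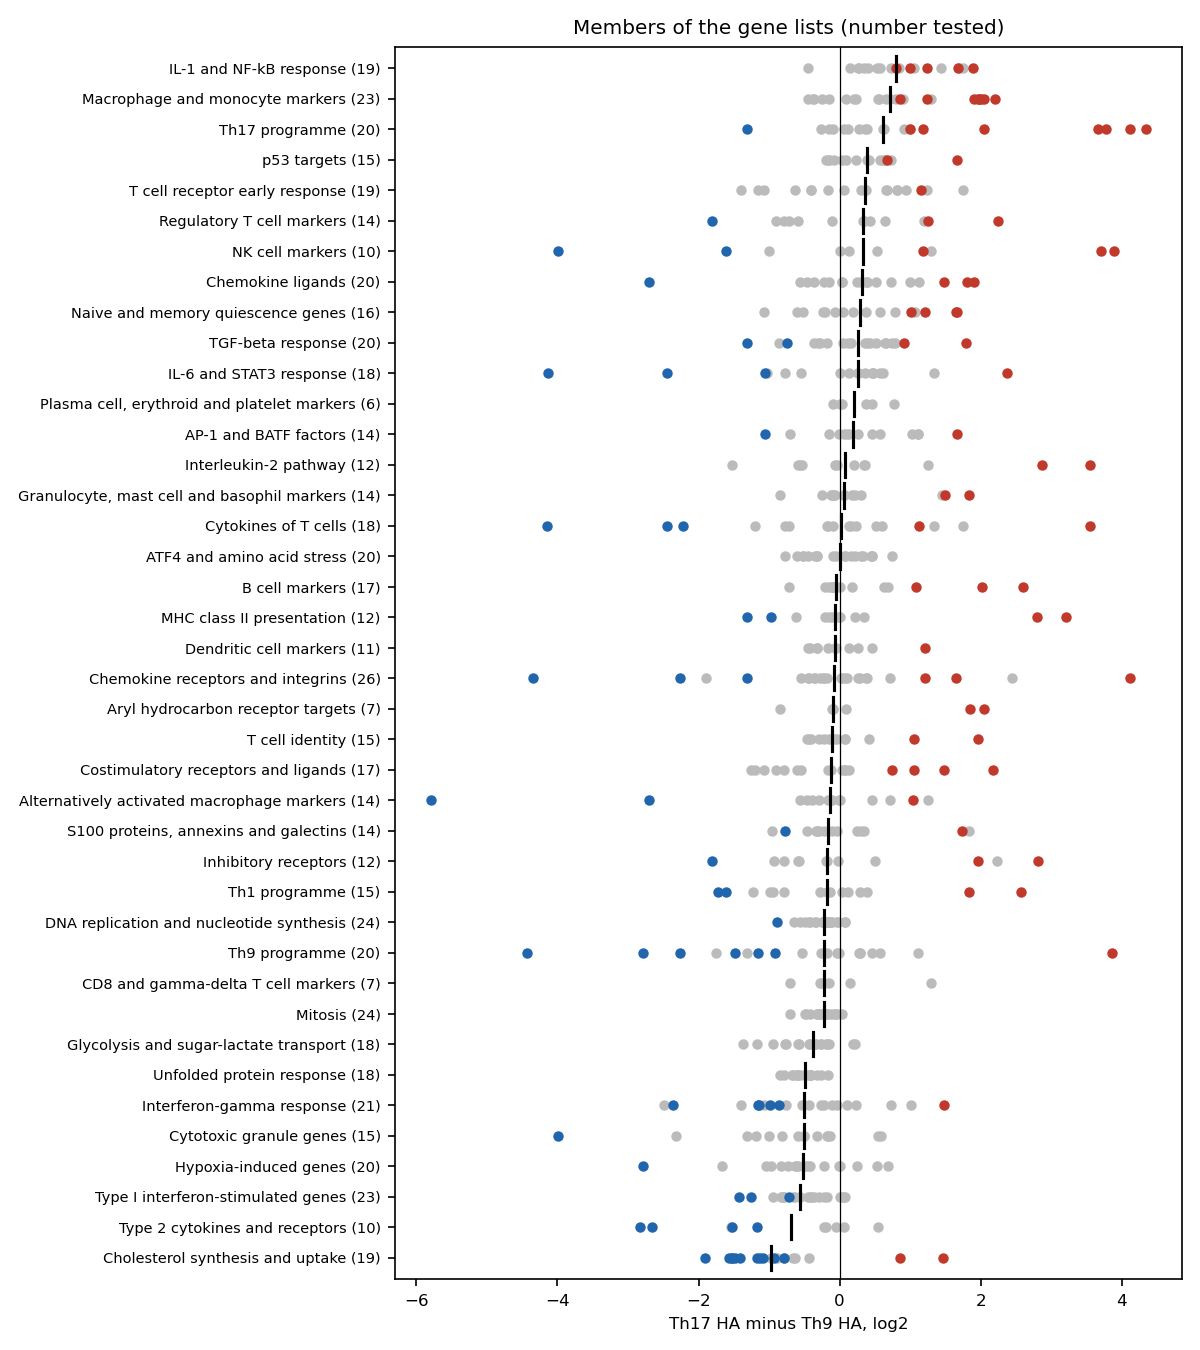
Th17 HA minus Th9 HA (log2) for each tested member of the gene lists, with the number tested in brackets; red dots are members called higher, blue dots members called lower, grey dots not called, and the black bar is the list's median. Cholesterol synthesis has the lowest median (-0.98) and the IL-1 and NF-κB response the highest (0.80).

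Most genes of the cholesterol list were called lower in the Th17 culture. Of 19 tested genes of cholesterol synthesis and uptake 11 were called lower and 2 higher, against 2.16% and 2.61% of all genes, and 17 had a negative difference. The median was -0.98, and with the replicate block 16 were lower. Members of the cholesterol list called lower numbered 6 without Th9 HA 1, 7 without Th17 HA 1 and 5 without Th17 HA 2. Hmgcs1, the HMG-CoA synthase that opens the mevalonate pathway, stood at 11.77 and 11.39 in Th9 HA and 9.90 and 10.19 in Th17 HA (difference -1.53 ± 0.21, 2.89-fold, adjusted p = 0.0027). Idi1 and Fdps, which make and join the isoprene units, differed by -0.79 ± 0.15 (adjusted p = 0.0169, but 0.0544 to 0.109 without Th9 HA 1 or either Th17 HA array) and -1.08 ± 0.19 (adjusted p = 0.0103, but 0.079 without Th9 HA 1 and 0.0754 without Th17 HA 2). Lss, which closes the sterol rings, stood at 10.58 and 9.52 in Th9 HA and 8.34 and 7.96 in Th17 HA (difference -1.90 ± 0.32, adjusted p = 0.00766, but 0.0654 without Th17 HA 2). The enzymes that trim lanosterol followed: Cyp51 stood at 10.79 and 10.54 in Th9 HA and 9.44 and 9.63 in Th17 HA, Msmo1 at 11.10 and 10.66 in Th9 HA and 9.35 and 9.36 in Th17 HA and Nsdhl at 11.11 and 10.59 in Th9 HA and 9.44 and 9.29 in Th17 HA. Their differences were -1.13 ± 0.17, -1.52 ± 0.20 and -1.49 ± 0.21 (adjusted p = 0.00406, 0.00201 and 0.00303). Insig1, a feedback regulator of the SREBP factors and itself their target, stood at 10.57 and 9.97 in Th9 HA and 8.95 and 8.47 in Th17 HA (difference -1.56 ± 0.23, adjusted p = 0.00406). These 8 genes were named for the smallest p in the list, so the gap between their arrays follows from that choice. The 2 called higher do not make sterols and were named after their values were seen: Abca1 (1.47 ± 0.30, adjusted p = 0.0187, but 0.0621 to 0.137 without Th9 HA 2 or either Th17 HA array) and Abcg1 (0.85 ± 0.20, adjusted p = 0.0394, but 0.0552 to 0.224 without any single Th9 HA or Th17 HA array, either Th1 HA array or either Th1 PBAB array) export cholesterol from the cell. Under PBAB the list's median difference was -0.60 with 8 genes called lower, against 3.74% of all genes, and 0 members were called in the difference between the activations (5 at an unadjusted p under 0.05, and 5 called with the replicate block).

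Other cell programmes had 0 to 2 called members each, to be read against 4.77% of all genes called either way. None of 18 glycolysis genes, 24 mitosis genes, 20 ATF4 and amino acid stress genes and 18 unfolded protein response genes was called in limma without the block. At an unadjusted p under 0.05 these were 3, 1, 1 and 9 genes, all lower. All 18 unfolded protein response genes had a negative difference (median -0.48), and 7 were called lower with the replicate block, as was 1 glycolysis gene. Of the mitosis genes 23 had a negative difference, with a median of -0.22. Of 20 hypoxia-induced genes 1 was called lower, Nfil3, and 5 with the block. Of 24 genes of DNA replication and nucleotide synthesis 1 was called, Tyms, thymidylate synthase (-0.89 ± 0.22, adjusted p = 0.0484, but 0.0623 to 0.249 without any single Th9 HA or Th17 HA array, either Th1 HA array, either Th1 PBAB array or either Th17 PBAB array), so that both lists had a share called close to that of all genes. Of 15 p53 targets 2 were called higher, Pmaip1 and Perp (0.68 ± 0.16, adjusted p = 0.0386, but 0.0546 to 0.231 without any single Th9 HA or Th17 HA array, either Th1 PBAB array, either Th9 PBAB array or either Th17 PBAB array), and 5 with the block. Members of the p53 list called higher numbered 1 without any single Th9 HA or Th17 HA array, either Th1 PBAB array, either Th9 PBAB array or either Th17 PBAB array.

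**Figure D4:**
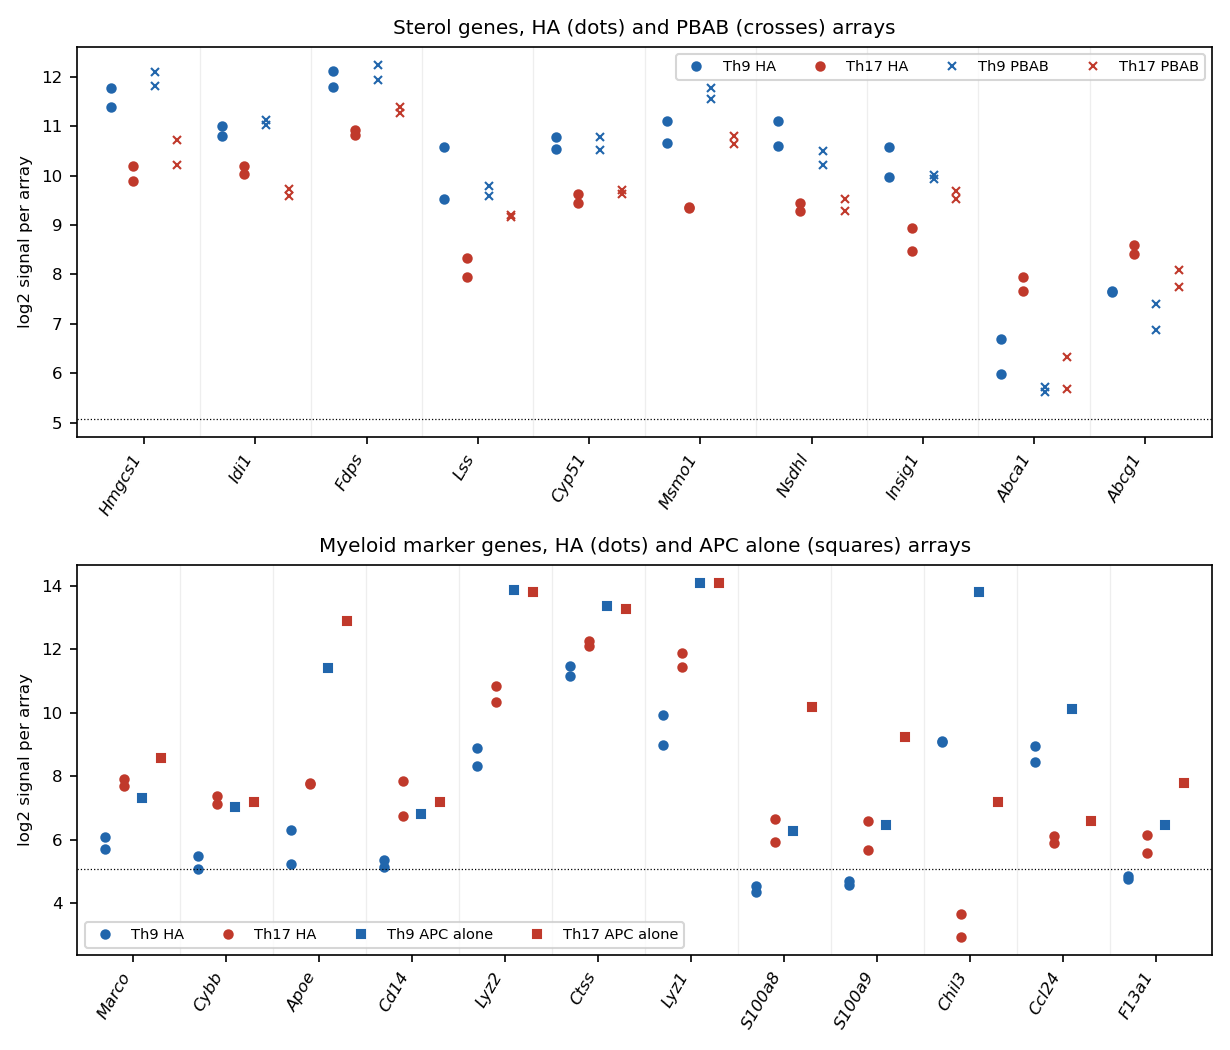
Log2 signal per array of sterol genes (top: HA arrays as dots, PBAB arrays as crosses) and of myeloid marker genes (bottom: HA arrays as dots, APC alone arrays as squares), Th9 in blue and Th17 in red; the dotted line is the signal threshold of 5.07. The 8 sterol synthesis genes are lower and Abca1 and Abcg1 higher in Th17 HA, and the APC alone array of Th9 is far above that of Th17 for Chil3 and Ccl24.

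Markers of splenocytes also differed between the cultures. Of 23 tested macrophage and monocyte markers 8 were called higher in Th17 HA, against 2.61% of all genes (12 with the replicate block, against 7.05%), and 0 lower (1 at an unadjusted p under 0.05), with a median of 0.72. Members of the macrophage list called higher numbered 5 without Th9 HA 2 or Th17 HA 1 and 4 without Th17 HA 2. The mean over the 24 markers on the array was 6.45 and 6.14 in Th9 HA and 6.95 and 7.22 in Th17 HA. It was 5.16 and 5.38 in Th9 PBAB, 5.10 and 5.29 in Th17 PBAB, 9.54 in Th9 APC alone and 9.87 in Th17 APC alone. Marco, a scavenger receptor of splenic macrophages, stood at 6.10 and 5.72 in Th9 HA and 7.70 and 7.92 in Th17 HA (adjusted p = 0.000252), and Cybb, the NADPH oxidase subunit, at 5.50 and 5.07 in Th9 HA and 7.37 and 7.13 in Th17 HA (adjusted p = 0.000325). Apoe stood at 6.29 and 5.24 in Th9 HA and 7.74 and 7.80 in Th17 HA (adjusted p = 0.00347) and the LPS coreceptor gene Cd14 at 5.36 and 5.14 in Th9 HA and 7.84 and 6.75 in Th17 HA (adjusted p = 0.00659). The lysozyme gene Lyz2 stood at 8.89 and 8.33 in Th9 HA and 10.34 and 10.84 in Th17 HA (adjusted p = 0.0182, but 0.0503 to 0.134 without Th9 HA 2 or either Th17 HA array) and Lyz1 at 9.93 and 8.97 in Th9 HA and 11.44 and 11.87 in Th17 HA (adjusted p = 0.0311, but 0.0925 to 0.218 without Th9 HA 2 or either Th17 HA array). Lyz1 and Lyz2 are near-identical copies, and their probe sets may share signal. The other 2 called were Ctss (0.86 ± 0.18, adjusted p = 0.0238, but 0.072 to 0.158 without Th9 HA 1 or either Th17 HA array) and Fcer1g (1.23 ± 0.30, adjusted p = 0.0453, but 0.0627 to 0.262 without any single Th9 HA or Th17 HA array, either Th1 HA array or either Th17 PBAB array). Some defining markers were low in both cultures: Adgre1 had group means of 4.99 in Th9 HA and 4.84 in Th17 HA, and Itgam of 3.67 and 3.86, all below 5.07. Csf1r, the growth factor receptor of macrophages, had 6.62 and 7.18 (adjusted p = 0.656).

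Genes of alternatively activated macrophages differed in both directions. Chil3, which encodes the chitinase-like protein Ym1 and is induced by IL-4 in macrophages, stood at 9.11 and 9.07 in Th9 HA and 2.93 and 3.66 in Th17 HA, so that Th17 HA was not told from background (adjusted p = 3.52e-06). It was at 2.89 and 3.13 in Th1 HA, below 5.07 in all 4 PBAB arrays, at 13.79 in Th9 APC alone and at 7.19 in Th17 APC alone. Ccl24, an eosinophil chemokine gene of the same kind of macrophage, stood at 8.96 and 8.44 in Th9 HA and 5.88 and 6.11 in Th17 HA (adjusted p = 9.28e-05), with 10.11 in Th9 APC alone and 6.59 in Th17 APC alone. F13a1 was the 1 of 14 tested members called higher (4.87 and 4.77 in Th9 HA and 5.58 and 6.16 in Th17 HA, adjusted p = 0.0175, but 0.0708 to 0.126 without either Th9 HA array or Th17 HA 2), and Chil3 and Ccl24 were the 2 called lower; with the replicate block 2 were higher and 3 lower. The granulocyte and monocyte genes S100a8 and S100a9 were below 5.07 in Th9 HA. In Th17 HA, S100a8 stood at 5.92 and 6.66 (adjusted p = 0.00206) and S100a9 at 5.67 and 6.59 (adjusted p = 0.00769, but 0.0534 without Th9 HA 1). In APC alone S100a8 was at 6.28 in Th9 and 10.17 in Th17. The remaining granulocyte, mast cell and basophil markers, 12 of 14 tested, were not called. Of all genes 2.61% were called higher and 2.16% lower, and 7.05% and 4.77% with the block. Il1b, Clec4e and Cxcl9, given above, are also made by myeloid cells, and the part of the splenocytes in these differences was not tested.

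A few class II and B cell genes differed. Of 12 class II presentation genes H2-Ob and the costimulatory ligand gene Cd86 (5.25 and 5.62 in Th9 HA and 8.26 and 8.21 in Th17 HA, adjusted p = 0.0012) were called higher. Of all genes 2.61% were called higher and 2.16% lower. H2-DMb2 (-1.31 ± 0.17, adjusted p = 0.00202) and H2-DMa (-0.97 ± 0.22, adjusted p = 0.0315, but 0.213 without Th9 HA 2 and 0.202 without Th17 HA 1) were called lower. Cd86 was also high in Th17 PBAB, which held no splenocytes (7.76 and 8.38, against 4.71 and 4.79 in Th9 PBAB), and stood at 6.87 and 7.0 in Th9 and Th17 APC alone. Of 17 tested B cell markers 3 were called higher, against 2.61% of all genes, and 0 lower (1 at an unadjusted p under 0.05). These were Pou2af1, a coactivator of B cell genes (7.57 and 7.19 in Th17 HA and below 5.07 in Th9 HA), Cd72 (2.02 ± 0.23, adjusted p = 0.000763) and Bank1 (4.84 and 5.05 in Th9 HA and 5.88 and 6.19 in Th17 HA, adjusted p = 0.0419, but 0.0572 to 0.248 without any single Th9 HA or Th17 HA array, either Th1 PBAB array, either Th9 PBAB array or either Th17 PBAB array), and with the replicate block 1 was lower. In the PBAB arrays, which held no splenocytes, Pou2af1 was at 7.64 and 6.85 in Th17. Cd72 was at 7.40 and 7.78 in Th9 PBAB and 7.56 and 8.03 in Th17 PBAB. The mean over the 17 B cell markers was 5.39 and 5.57 in Th9 HA, 5.69 and 5.93 in Th17 HA and 6.60 and 6.55 in the APC alone arrays of Th9 and Th17.

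The question whether the lineages differed in the same way under plate-bound antibody was addressed with the 4 PBAB arrays, which share none with the HA arrays. Of the 739 genes called under HA, 552 had the same sign under PBAB, and the share of same signs over all genes was not counted. Called under both were 261 with the same sign and 16 with opposite signs. Both differences come from 1 fit with a shared variance per gene, so the 2 sets of calls are not independent. Under PBAB 987 genes were called (6.37%), 408 higher (2.63%) and 579 lower (3.74%). The difference itself differed between the activations in 265 genes (1.71%), 171 with a more positive value under HA (1.10%) and 94 with a more negative one (0.607%). With the replicate block these were 1476 (9.52%), 1004 (6.48%) and 472 (3.05%), and after a further quantile normalization 157 and 136. The total of 265 fell to 118 without Th9 HA 1, 141 without Th9 HA 2 (where the split turned, to 55 more positive and 86 more negative), 64 without Th17 HA 2, 78 without Th9 PBAB 1, 75 without Th17 PBAB 1 and 143 without Th17 PBAB 2.

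For genes with a mean below 5.07 in any of the 4 groups, only the adjusted p of the difference between the activations is given, since its size was not measured. Among the lineage genes, Il17a was high in Th17 cultures under both activations (5.41 and 5.64 in Th9 PBAB, 11.85 and 11.82 in Th17 PBAB; difference between activations -1.96 ± 0.43, adjusted p = 0.0502, and 0.0155 with the replicate block). Ccr6 stood at 7.10 and 6.78 in Th9 PBAB and 8.22 and 7.29 in Th17 PBAB, and its difference was larger under HA by 3.31 ± 0.43 (adjusted p = 0.00685). Il2 had a more positive value under HA (adjusted p = 0.00611). The type 2 genes Il5, Gata3 and Il4 were further apart under PBAB (for Il4, adjusted p = 0.0379; adjusted p 0.0536 to 0.139 without any single Th9 HA or Th17 HA array, either Th1 PBAB array, either Th9 PBAB array or either Th17 PBAB array). Il5 stood at 8.59 and 8.49 in Th9 PBAB and 3.89 and 3.87 in Th17 PBAB (adjusted p = 0.00174). Gata3 stood at 11.44 and 10.99 in Th9 PBAB and 5.29 and 5.58 in Th17 PBAB (2.95 ± 0.57, adjusted p = 0.0319; adjusted p 0.0558 to 0.121 without either Th9 PBAB array, either Th17 HA array or either Th17 PBAB array). Ifng stood at 7.65 and 8.41 in Th9 PBAB and 3.32 and 4.13 in Th17 PBAB, where the cultures did not overlap, while they did under HA (adjusted p = 0.0143; adjusted p 0.0618 without Th17 HA 2 and 0.062 without Th17 PBAB 1). Il17rb was low in the PBAB arrays (5.63 and 6.04 in Th9 and 4.99 and 4.92 in Th17), and its gap was wider under HA (adjusted p = 0.00174).

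Outside the lineage list, values were more positive under HA for Ccl3, a chemokine gene (adjusted p = 0.00695), the sialyltransferase gene St8sia6 (adjusted p = 0.00174), Ipcef1 (adjusted p = 0.00685), Plek, which encodes pleckstrin (3.22 ± 0.37), Btla (3.16 ± 0.34) and Il12a (3.11 ± 0.52; adjusted p 0.0527 to 0.0755 without either Th9 HA array, Th9 PBAB 2, Th17 HA 2 or Th17 PBAB 1). Ccl3 stood at 4.95 and 5.95 in Th9 HA and 6.65 and 7.87 in Th17 HA and at 6.48 and 7.06 in Th9 PBAB and 4.31 and 4.28 in Th17 PBAB, so its order turned with the activation (HA difference adjusted p = 0.0291, but 0.0511 to 0.201 without Th9 HA 1, Th17 HA 2 or either Th17 PBAB array). The order of St8sia6, Ipcef1 and Plek turned as well, with HA differences of 1.27 ± 0.29 (adjusted p = 0.0327, but 0.0548 to 0.163 without any single Th9 HA or Th17 HA array or either Th17 PBAB array), 1.29 ± 0.38 (adjusted p = 0.0925, and 0.0416 with the replicate block, but 0.0366 without either Th1 HA array) and 1.17 ± 0.26 (adjusted p = 0.0304, but 0.0524 to 0.182 without Th9 HA 2, either Th17 HA array or either Th17 PBAB array). Il12a differed by 0.72 ± 0.37 under HA (adjusted p = 0.408, and 0.0376 with the replicate block). Values were more negative under HA for Chil3 (adjusted p = 0.000179), Tiam1, a Rac exchange factor (-5.04 ± 0.42), Metrnl (-4.16 ± 0.48), Lbp (-4.10 ± 0.52), S1pr3 (-4.06 ± 0.76; adjusted p 0.0602 to 0.113 without either Th9 HA array, either Th9 PBAB array, Th17 HA 2 or either Th17 PBAB array), Fgl2 (adjusted p = 0.0104), Il6 (adjusted p = 0.0149; adjusted p 0.0508 to 0.0609 without Th9 HA 1, Th9 PBAB 1, Th17 HA 2 or either Th17 PBAB array) and Car8 (adjusted p = 0.00685). Tiam1 stood at 9.94 and 9.42 in Th9 HA and 7.97 and 7.45 in Th17 HA and at 5.98 and 5.44 in Th9 PBAB and 8.86 and 8.71 in Th17 PBAB, a turned order with no overlap under either activation. Metrnl, a secreted metabolic factor, turned in the same manner (8.44 and 7.85 in Th9 HA and 5.75 and 4.81 in Th17 HA; 5.86 and 6.28 in Th9 PBAB and 7.49 and 7.24 in Th17 PBAB). Lbp, which encodes the LPS binding protein, stood at 5.19 and 5.71 in Th9 PBAB and 11.18 and 9.90 in Th17 PBAB, with an HA difference of 0.99 ± 0.37 (adjusted p = 0.206). S1pr3 stood at 6.46 and 5.66 in Th9 PBAB and 9.06 and 10.02 in Th17 PBAB, with an HA difference of -0.58 ± 0.54 (adjusted p = 0.74). Of the Th9 and Th17 arrays under HA and PBAB, Car8 was above 5.07 in Th9 HA alone (7.58 and 6.45).

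**Figure D5:**
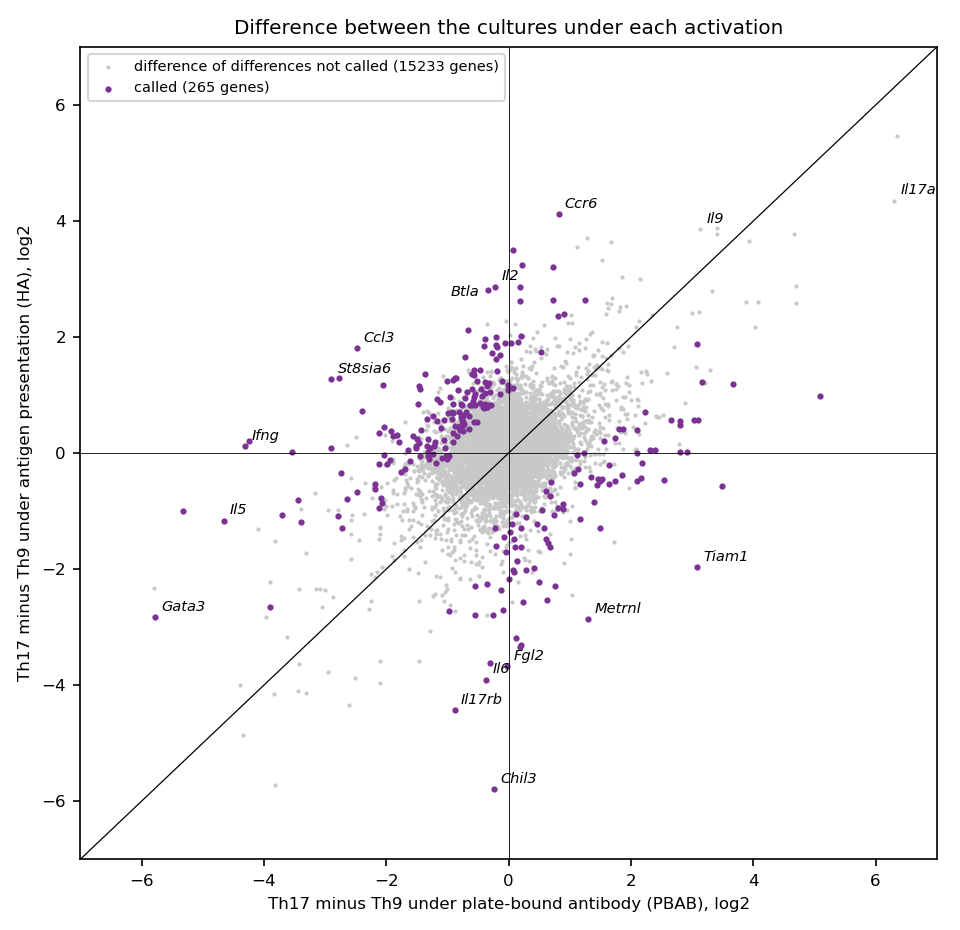
Th17 minus Th9 (log2) under plate-bound antibody (horizontal) and under antigen presentation (vertical) for the 15498 genes tested; purple dots are the 265 genes whose difference was called to differ between the activations and the diagonal marks equal differences. Chil3 and Il17rb lie far below the horizontal line near 0 under PBAB, Ifng lies near 0 under HA, and Il17a is high under both.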

How the data were processed

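Expression was measured on 15 Affymetrix mouse arrays. The deposited table holds log2 values that the authors made with RMA, per the submitters' processing notes, which name no version of it. Probe sets were named through GEO's platform annotation: of 45101, 34958 had 1 gene symbol, 932 had several and 9211 had none, and the latter 2 kinds are unnamed here. Symbols are those of the array's annotation. For each symbol the probe set with the highest mean over the 15 arrays was used, which left 18194 genes. Genes above 5.07 (the 40th percentile of the table) in at least 2 arrays were tested, 15498 in all.

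limma 3.58.1 (R 4.3.3) was fitted over all 15 arrays with 1 mean per group and moderated variances (6 residual and 4.38 prior degrees of freedom); errors are standard errors, and p-values were adjusted over all genes tested (Benjamini-Hochberg), with an adjusted p under 0.05 as the threshold for a call. The number of arrays limits the precision. The fit was tested on simulated data, where it called 58% of 2-fold and 91% of 4-fold changes. A gene not called may thus still differ. The simulated noise was independent between arrays, unlike the deviations shared by replicate number in these data. Groups came from the titles. Replicate numbers were checked by the correlation, over genes, of the deviations from the group means between arrays of the same number: over the 15 pairs of activated groups it was 0.296 at the lowest, 0.484 in the median and 0.708 at the highest (0.613 for Th9 HA with Th17 HA). The labels' numbers were therefore also fitted as a block.

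The comparison, gene lists and named genes were chosen with earlier results of these data known. Named were the 15 largest called differences each way, all tested lineage genes, up to 8 members of each list by p, and the 8 largest differences each way between HA and PBAB, with no overlap of the arrays. Alternatives changed the filter, arrays, block, scaling, probe set, variance model and fold minimum, and left out each array. Scanner files were not used here.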

Additional observations from a re-analysis of the deposited data

Results flagged for a closer look

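The difference between Th17 and Th9 differed between HA and PBAB, by limma's test of the difference of differences, in 36 of the named genes; values are HA difference minus PBAB difference on the log2 scale. Among the lineage genes these were Ccr6 (3.31), Il2 (3.08), Ifng (4.42), Il4 (1.24), Il5 (3.49), Gata3 (2.95), Il4ra (-2.09) and Il17rb (-3.55). Positive values were also found for Clec4e (3.42), Upp1 (3.02), H2-Ob (2.49), Ccl3 (4.29), St8sia6 (4.17), Ipcef1 (4.07), Plek (3.22), Btla (3.16), Il12a (3.11), Nr4a3 (2.62), Pmaip1 (2.38) and Psmb9 (1.21). Negative values were found for Chil3 (-5.56), Fgl2 (-3.65), Tiam1 (-5.04), Metrnl (-4.16), Lbp (-4.10), S1pr3 (-4.06), Car8 (-3.51), Il6 (-3.54), Eomes (-1.40) and Ccl24 (-2.62). Those of Clec4e, H2-Ob, Chil3, Il17rb, Il6, Fgl2, Il4, Il5, Ifng, Il2, Ccl3, St8sia6, Ipcef1 and Car8, and of Cybb and S100a8 in the set given next, are fitted values with at least 1 of the 4 group means below 5.07, so their sizes were not measured.

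Genes known from myeloid or B cells, though not made by them alone, made up a further set with positive values: Il1b (1.82), Marco (1.95), Cybb (2.36), Apoe (2.21), S100a8 (2.03) and Cd72 (1.82). In the PBAB arrays of Th9 and Th17, to which no splenocytes were added, the highest signal of the first 5 was 5.89 (Il1b in Th9 PBAB 2), and Cd72 stood at 7.40 and 7.78 in Th9 and 7.56 and 8.03 in Th17; the part of the splenocytes in these values was not tested. Of the 36 genes, 21 kept their call when each array was left out in turn. The other 15 did not. For Upp1 the adjusted p was 0.0523 without Th17 PBAB 1. For Ifng the adjusted p was 0.0618 without Th17 HA 2 and 0.062 without Th17 PBAB 1. For Pmaip1 the adjusted p was 0.0505 without Th17 HA 2 and 0.0633 without Th17 PBAB 1. For Il6 the adjusted p was 0.0508 to 0.0609 without Th9 HA 1, Th9 PBAB 1, Th17 HA 2 or either Th17 PBAB array. For Il4 the adjusted p was 0.0536 to 0.139 without any single Th9 HA or Th17 HA array, either Th1 PBAB array, either Th9 PBAB array or either Th17 PBAB array. For Gata3 the adjusted p was 0.0558 to 0.121 without either Th9 PBAB array, either Th17 HA array or either Th17 PBAB array. For Il4ra the adjusted p was 0.0569 to 0.0879 without Th9 HA 1, either Th9 PBAB array, Th17 HA 2 or either Th17 PBAB array. For Il12a the adjusted p was 0.0527 to 0.0755 without either Th9 HA array, Th9 PBAB 2, Th17 HA 2 or Th17 PBAB 1. For S1pr3 the adjusted p was 0.0602 to 0.113 without either Th9 HA array, either Th9 PBAB array, Th17 HA 2 or either Th17 PBAB array. For Eomes the adjusted p was 0.0518 to 0.107 without Th9 HA 2, either Th9 PBAB array, either Th17 HA array or Th17 PBAB 1. For Il1b the adjusted p was 0.0525 to 0.0839 without Th9 HA 2, Th9 PBAB 2, either Th17 HA array or Th17 PBAB 1. For Apoe the adjusted p was 0.0534 to 0.106 without Th9 PBAB 1, either Th17 HA array or either Th17 PBAB array. For S100a8 the adjusted p was 0.0523 to 0.0755 without Th9 HA 1, either Th9 PBAB array, Th17 HA 2 or either Th17 PBAB array. For Psmb9 the adjusted p was 0.0558 to 0.124 without either Th1 PBAB array, Th9 HA 1, either Th9 PBAB array, either Th17 HA array or either Th17 PBAB array. For Cd72 the adjusted p was 0.0504 to 0.0971 without either Th9 HA array, either Th9 PBAB array, Th17 HA 2 or Th17 PBAB 1.

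Of 7185 probe sets that carry no gene symbol or several, 39 were called higher and 53 lower in Th17 HA when tested by themselves; their genes are unnamed here.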

How the results depend on the processing

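The total of 739 genes called in Th17 HA minus Th9 HA was 310 with only the 4 arrays of the comparison in the fit, 70 against a 2-fold minimum change, and 576 to 793 with the other filters, scalings, probe sets and variance models. For the difference between the activations the total of 265 was 144 with only the 8 arrays of the comparison, 11 against a 2-fold minimum, and 213 to 344 with those others. The labels' replicate numbers paired the samples: with the replicate block the totals were 1831 and 1476, and 2228 and 1037 with the block and only the arrays of the comparison, and all 739 and all 265 calls were kept. With the block, 5 further named genes were called under HA and 37 in the difference between the activations; it changed no other named call. Leaving out 1 array gave 364 to 719 and 64 to 248. Of 139 named genes 118 were called, and 64 of these kept the call without each array in turn. A second quantile normalization moved the split of the 265 from 64.5% to 53.6% with a positive value. Maf turned from -0.15 to 0.10 with the mean of its probe sets and to 0.17 with its most variable probe set; the cause was not tested. Without 1 array each, some uncalled values turned sign: Ifng ranged from -0.58 to 0.82, Stat3 from -0.23 to 0.50, Stat6 from -0.17 to 0.71, Csf2 from -0.13 to 0.60, Il3 from -0.062 to 0.18, Cd4 from -0.42 to 0.21, Cd3e from -0.58 to 0.15 and Maf from -0.46 to 0.17. Of 95 other probe sets of named genes 6 had the opposite sign, none with both at an unadjusted p under 0.05. With the mean of all probe sets 9 named genes lost their call under HA. These were Il1r1, Il10, St8sia6, Bach2, Nr4a3, Tap1, Tnfrsf1b, Abca1 and Abcg1. With the most variable probe set 12 named genes lost it, among them Hmgcs1, Il1rn, Bach2 and Plek. Signal near 5.07 limits genes low in both cultures.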
